A study of Mus musculus with 2 samples.

Results

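Potassium channel genes were examined for open chromatin in hepatic stellate cells, which are pericytes of the liver sinusoids and store vitamin A. The members were all protein-coding mouse genes whose symbol is Kcn, further lower-case letters and then a digit, without Kcnj8, Kcnj11, Kcnma1 and Kcnmb1. This left 89 of 21887 protein-coding genes in mm10, chosen by name and not by any measured value. ATAC-seq, in which the transposase Tn5 cuts and tags accessible DNA, was run on sorted liver nuclei from 2 samples, replicates A and B of a single group. By the labels the mice were healthy, fed chow and of strain C57BL6/JBomTac, carrying Gt(ROSA)26Sortm1(mCherry-Rpl10a-Flop)Kra, an mCherry-tagged ribosomal protein at ROSA26, and the transgene Tg(Lrat-cre)1Rshw, which places Cre under control of Lrat. Age, and whether A and B came from separate animals, are not given in the sources used here, so the spread between A and B may be technical. There was no second condition, hence no comparison between treatments and no p-value. Peak names in B start with the word Oil, although its label says control and chow, and the labels were followed.

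Potassium channels let potassium ions leave or enter a cell and thereby set its resting voltage. Voltage-gated channels open on depolarisation, inward rectifiers and two-pore channels carry current near rest, and calcium- or sodium-activated channels respond to ions inside the cell. Auxiliary subunits alter the gating or the surface level of the pore-forming subunits. In contractile pericytes, potassium channels oppose the calcium entry that leads to contraction.

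The deposited lists held 36577 entries in A and 28794 in B, and 23452 entries of A overlapped one of B by at least 1 bp. These are called replicated peaks and carry the coordinates of A. Read depth is unknown, since the lists give no counts. Fold enrichment is the authors' ratio of a peak to the local background of their caller, and it is used only within a list. A locus spans the gene and 20 kb beyond each boundary. A gene is called open where a replicated peak lies in its body or within 1 kb of one of its ends, and closed otherwise, which at unknown depth says only that no such peak was listed. The cell type label was set against marker genes. Of 12 stellate markers 11 were open, and all 12 had a replicated peak in the locus, against 64.6% of all protein-coding genes. A replicated peak in the locus was also found at 4 of 5 lymphocyte, 5 of 6 portal fibroblast and smooth muscle and 4 of 5 neuronal markers, at 3 of 8 sinusoidal endothelial, 2 of 8 hepatocyte and 2 of 8 Kupffer and myeloid markers, and at 1 of 5 cholangiocyte markers. Of 8 hepatocyte markers only Cyp2e1 was open, of 8 Kupffer and myeloid markers none was, and of 8 sinusoidal endothelial markers Kdr, Pecam1 and Stab1 were. Open too were Lck of 5 lymphocyte markers, none of 5 cholangiocyte markers, Eln and Myh11 of 6 markers of portal fibroblasts and smooth muscle, and Rbfox3, Snap25, Syn1 and Syt1 of 5 neuronal markers.

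Most potassium channel genes were closed. Of the 89 members, 25 (28.1%) were open, against 51.4% of all protein-coding genes. Other genes of like length, taken within 10 classes of gene length and weighted to the lengths of the members, were open in 59.9%. Length had to be matched because the members are long, with a median of 36216 bp against 17127 bp for other genes. The deficit was largest at gene ends. Only 11 members (12.4%) had a replicated peak within 1 kb of an own end, against 41.9% of all genes and 45.6% of other genes of like length. A replicated peak anywhere in the locus was found at 46 members (51.7%), against 64.6% of all genes and 71.3% of others of like length.

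The shortfall was present in each of 3 equal classes of gene length. Among the shortest genes 1 of 15 members was open (6.67%), against 29.7% of other genes. In the middle class 7 of 25 (28%) were open against 57.2%, and in the longest class 17 of 49 (34.7%) against 67.6%. Inside gene bodies, without matching for length, the members held 4.43 replicated peaks per Mb and other genes 16.7. Counting only peaks more than 1 kb from every protein-coding gene end, the values were 3.62 and 7.86 per Mb, again not matched for length. Members of at least 100 kb numbered 22, of which 9 were open (40.9%), against 70.6% of other genes of that size. The bodies of these members held 3.01 replicated peaks per Mb, against 8.7 in other genes of that size.

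The 97 replicated peaks of the member loci were spread thinly. Counts per locus had a mean of 1.09 ± 1.5 (SD over 89 genes), against 1.87 in other genes of like length, and the median was 1 in both the members and all genes. No replicated peak was found at 43 members, 1 at 21, 2 at 14, 3 at 4, 4 at 2, 5 at 2 and 6 at 3. At an own end lay 12 of the peaks (12.4%), against 30.7% of the gene and peak pairs of other genes. Another 36 (37.1%) lay in the body away from the own ends, against 24.8%. The remaining 49 (50.5% against 44.5%) lay in the flanks, and 30 of these (61.2% against 56.2%) sat within 1 kb of where a neighbouring protein-coding gene begins or ends.

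**Figure D1:**
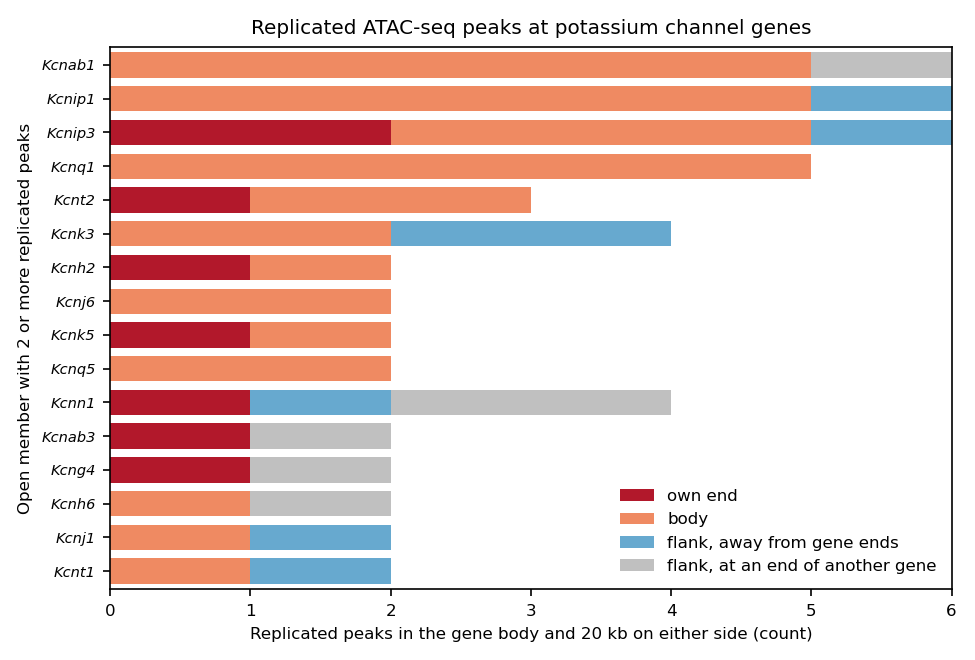
Replicated peaks at the 16 open members that had 2 or more, one bar per gene, with the count on the horizontal axis and colours for the place of each peak. Kcnab1, Kcnip1, Kcnip3 and Kcnq1 hold 5 peaks each in the body or at an own end, and the others hold 1 to 3 there.

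Sequences at annotated starts are shown for open and for closed members. RefSeq (GRCm38.p6, the assembly of mm10) gives promoter windows of 250 bases before to 50 after a start for 65 of the 89 members. Shown first are Kcnab2, Kcnk5 and Kcnj2, whose windows overlapped a replicated peak. They are followed by Kcnd2, Kcnh7 and Kcnh8, members of 376486 to 514460 bp with a CpG-rich start and no replicated peak in the whole locus. Each run is the 250 bases before the start, 5′ to 3′ on the strand of the gene, and capitals mark CpG dinucleotides.
Kcnab2, chr4:152477550-152477799, minus strand: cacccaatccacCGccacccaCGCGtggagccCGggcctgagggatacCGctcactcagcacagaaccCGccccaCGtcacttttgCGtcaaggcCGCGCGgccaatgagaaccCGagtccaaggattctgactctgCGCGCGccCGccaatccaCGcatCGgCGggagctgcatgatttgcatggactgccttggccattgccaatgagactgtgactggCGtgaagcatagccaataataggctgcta
Kcnk5, chr14:20181783-20182032, minus strand: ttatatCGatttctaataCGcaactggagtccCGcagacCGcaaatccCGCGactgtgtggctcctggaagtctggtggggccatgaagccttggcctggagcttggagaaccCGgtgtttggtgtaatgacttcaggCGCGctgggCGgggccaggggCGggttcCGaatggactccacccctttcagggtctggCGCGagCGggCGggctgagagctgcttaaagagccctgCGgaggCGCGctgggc
Kcnj2, chr11:111065914-111066163, plus strand: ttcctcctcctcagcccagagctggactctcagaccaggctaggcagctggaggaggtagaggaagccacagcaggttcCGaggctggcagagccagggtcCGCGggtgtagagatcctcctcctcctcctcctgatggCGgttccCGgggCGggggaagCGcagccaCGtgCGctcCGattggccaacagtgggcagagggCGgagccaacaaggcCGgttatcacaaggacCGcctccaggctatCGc
Kcnd2, chr6:21215096-21215345, plus strand: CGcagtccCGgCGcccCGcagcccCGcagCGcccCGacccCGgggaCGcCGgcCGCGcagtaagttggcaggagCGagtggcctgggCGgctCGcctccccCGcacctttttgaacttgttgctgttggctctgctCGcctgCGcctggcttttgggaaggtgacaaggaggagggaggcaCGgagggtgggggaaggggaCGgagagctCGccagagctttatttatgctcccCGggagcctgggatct
Kcnh7, chr2:63184288-63184537, minus strand: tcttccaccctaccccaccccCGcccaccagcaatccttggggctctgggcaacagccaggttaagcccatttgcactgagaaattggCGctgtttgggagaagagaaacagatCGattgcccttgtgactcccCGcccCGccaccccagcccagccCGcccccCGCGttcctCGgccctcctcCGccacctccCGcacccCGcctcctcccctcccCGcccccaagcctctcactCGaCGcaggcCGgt
Kcnh8, chr17:52602459-52602708, plus strand: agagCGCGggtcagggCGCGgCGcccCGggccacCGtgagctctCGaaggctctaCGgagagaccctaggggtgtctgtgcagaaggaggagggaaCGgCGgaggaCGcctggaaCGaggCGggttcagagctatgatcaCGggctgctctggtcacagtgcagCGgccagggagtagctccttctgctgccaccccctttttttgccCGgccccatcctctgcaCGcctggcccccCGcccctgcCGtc

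The 250 bases before the start hold 20 CpGs at Kcnab2, 19 at Kcnk5 and 14 at Kcnj2. At the closed genes they hold 22 at Kcnd2, 16 at Kcnh7 and 20 at Kcnh8. These 6 starts were picked as examples after their values were seen, and the closed ones were chosen as CpG-rich, so their CpG numbers are a description only. Over all windows, a window was called CpG-rich where its observed over expected CpG ratio was at least 0.6 and its GC content at least 55%. Of the 65 members with a window, 5 (7.69%) had a replicated peak over one, against 40.6% of all protein-coding genes with a window. Within genes that have a CpG-rich window the values were 3 of 24 members (12.5%) and 68.7% of other genes. Within genes that have none they were 2 of 41 (4.88%) and 18.6%. The 3 were Kcnab2, Kcnip3 and Kcnk5. The 2 without were Kcnj2 and Kcnt2. Windows of members were less often CpG-rich, 25 of 90 (27.8%) against 41.0% of other windows, but the gap to other genes was present on both sides of that split.

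**Figure D2:**
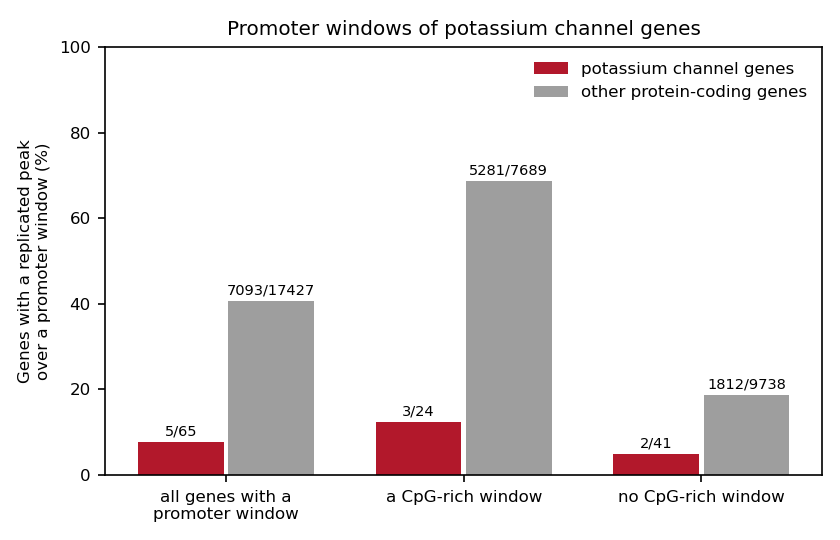
Percent of genes with a replicated peak over a promoter window, for potassium channel genes in red and other protein-coding genes in grey, with the counts above the bars. Within genes that have a CpG-rich window the members reach 12.5% and other genes 68.7%.

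Short motifs were counted on both strands of the same windows. The GC box GGGCGG stood in 44 of 90 member windows (48.9%) and in 46.2% of other windows, and in 72.4% of the other windows that carried a replicated peak. The ETS motif CCGGAAG stood in 3 member windows (3.33%) and in 11.6% of others. The AP-1 motif TGANTCA was in 4 (4.44%) against 7%, the NFI core TTGGCA in 11 (12.2%) against 13.1% and the TEAD motif ACATTCC in 2 (2.22%) against 3.38%. The E-box CANNTG was in 66 (73.3%) against 69.0%, and a part of the NRSE, TTCAGCACC, in 1 (1.11%), at Kcnh6, against 0.411%. Of the 7 member windows with a replicated peak, 5 held a GC box and none the ETS motif. The ETS motif stood in 22.8% of the other windows that carried a replicated peak. These are matches of letters and not bound sites.

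For 65 members the table also gives the strand, which tells the start of a gene from its far end. A replicated peak lay within 1 kb of the start boundary at 8 members (12.3%), against 41.3% of other genes. At the far boundary there was none among the members, against 3.87% of other genes. The 8 were Kcnip3, Kcnn1, Kcnt2, Kcnh2, Kcng4, Kcnk5, Kcnab2 and Kcnj2. Kcnab3, Kcne1 and Kcnn2 also had a peak at an end, of a kind not told apart here.

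Auxiliary subunits made up 3 of the 4 members with 5 replicated peaks in the body or at an own end. Of 15, 6 were open (40%), against 55.9% of other genes of like length, and together they held 27 replicated peaks. All 3 genes of the beta subunits of Shaker-type channels were open. Kcnab1 had 6 replicated peaks in its locus on chromosome 3 from 64949212 to 65378225, 5 of them in the body and none at an own end. Fold enrichment of these 5 ran from 5.27 to 12.5 in A and from 6.76 to 14.0 in B. The sixth, 14.3 kb outside the gene at 65392511 to 65392863, reached 21.4 in A and 24.6 in B, and lies at an end of Ssr3. Kcnab2 had 1 peak, at its start (chr4:152477463-152477770), where fold enrichment was 22.9 in A and 19.3 in B. It was the strongest peak at an own end of any member, and it also lies at an end of Nphp4. At Kcnab3 the peak at the lower end had 8.44 in A and 9.40 in B, and lay within 1 kb of an end of Trappc1 as well.

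Kcnip genes encode calcium-binding proteins of the KChIP family, which escort Shal-type channels to the surface. The product of Kcnip3 is also known as DREAM, a calcium-sensitive transcriptional repressor. Kcnip3, on chromosome 2 from 127456498 to 127522094, was open at its start in 2 places. The peak at 127522065 to 127522403 had 16.0 in A and 11.5 in B, and that at 127521296 to 127521551 had 12.1 in A and 8.07 in B. Another peak, with 10.6 in A and 8.64 in B, covered a CpG-rich start inside the gene at 127482504 to 127482836. Kcnip1, on chromosome 11 from 33629339 to 33993348, had 5 peaks in the body and none at an end. Its strongest, at 33754800 to 33755098, had 32.4 in A and 14.0 in B, the highest value in A of any peak in the member loci. The 2 other Kcnip genes were closed, and Kcnip4, at 1135620 bp the longest member, had no entry of either list in its body. Of the Kcne genes, which encode single-span partners of voltage-gated channels, only Kcne1 was open. Its peak lay 0.494 kb outside the lower end, with 8.0 in A and 8.63 in B.

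**Figure D3:**
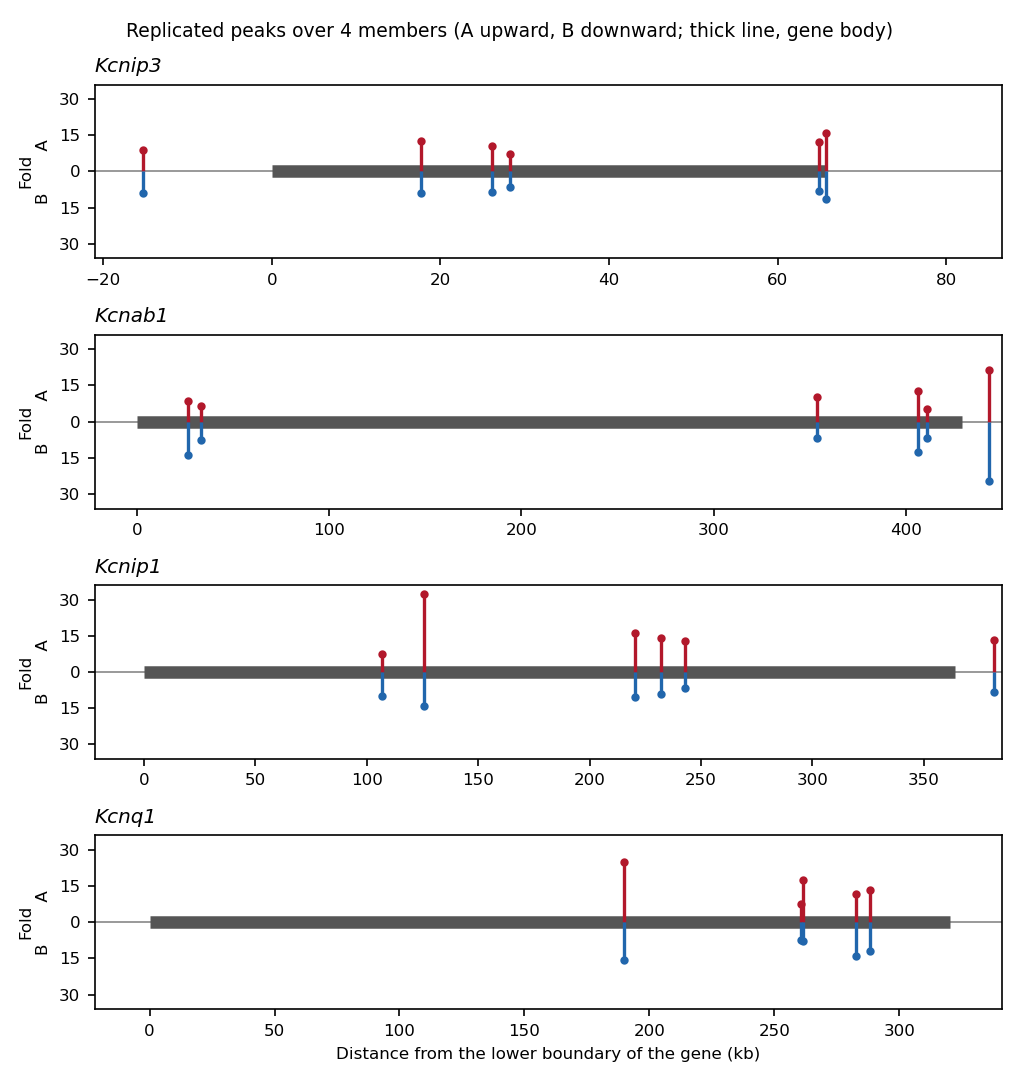
Replicated peaks over the 4 members with 5 peaks in the body or at an own end, as distance in kb from the lower boundary of the gene. Stems give the fold enrichment in A upward and in B downward, the thick line is the gene body and the thin line its flanks of 20 kb. At Kcnip3 2 peaks sit at the higher boundary, where the gene starts, while at Kcnab1, Kcnip1 and Kcnq1 no peak sits at either boundary.

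Voltage-gated alpha subunits were mostly closed. Of 40 members 9 were open (22.5% against 60.8% of others of like length) and 2, Kcnh2 and Kcng4, had a peak at an own end. No entry of either list lay in the locus of 15 of them, a count that was not made over other genes. None of the 8 Kcna, 4 Kcnc, 3 Kcnd, 3 Kcns and 2 Kcnv genes was open. Kcnq1, Kcnq3 and Kcnq5 were open, each in the body alone.

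Kcnq1, which encodes the pore of a slow delayed rectifier, had 5 replicated peaks in its body on chromosome 7 from 143106877 to 143427050. The strongest, at 143296488 to 143296827, had 25.1 in A and 15.8 in B. It covered the higher boundary of the noncoding gene Kcnq1ot1, which spans 143213111 to 143296547 inside Kcnq1 and is known as an imprinted transcript running antisense to it. The other 4 lay 71.2 to 98.6 kb from that boundary, outside Kcnq1ot1, with 7.43 to 17.3 in A and 7.21 to 13.8 in B. The lists thus place 1 of the 5 peaks at another transcript. It was among 4 of 36 body peaks of members that lay in or within 1 kb of a long noncoding RNA gene. So did both peaks at the start of Kcnip3 and the peak at the end of Kcng4. The share over all genes was not counted. Kcnq3 and Kcnq5 encode subunits of the M-type current, which damps firing in neurons. Kcnq3 had 1 peak with 13.6 in A and 12.3 in B. At Kcnq5, 2 peaks had 6.92 and 7.91 in A and 7.78 and 7.92 in B.

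Kcnh2, the gene of the ERG channel that repolarises the heart, had a peak 0.043 kb outside the start boundary of its span, with 9.96 in A and 7.87 in B. Its place is -22.2 kb (upstream) relative to the only Kcnh2 start with a promoter window, and that window held no replicated peak. Another peak, in the body, had 13.8 in A and 12.0 in B. Its relatives Kcnh5 and Kcnh6 had 1 body peak each, with 15.7 and 11.3 in A and 14.1 and 12.4 in B. Kcng4, which encodes a silent subunit that works only in mixed channels, had a weak peak 0.564 kb outside its start boundary, with 6.07 in A and 7.01 in B.

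Inward rectifiers were open at 4 of 13 members (30.8% against 60.5%). Kcnj2, which encodes the classical strong inward rectifier, had its only peak at its start (chr11:111065959-111066200), where the values were 12.0 in A and 9.89 in B. No other Kcnj member was open at an end. Kcnj5 and Kcnj6 encode channels gated by G proteins. Kcnj5 had 1 body peak with 10.8 in A and 14.5 in B, and the 2 of Kcnj6 had 13.9 and 12.0 in A and 9.47 and 9.74 in B. Kcnj1, whose product carries potassium secretion in the kidney, had 1 in the body with 10.8 in A and 8.73 in B.

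Two-pore channel genes were open at 2 of 14 (14.3% against 58.1%). Kcnk5, which encodes an alkaline-activated leak channel, had a peak at its start with 11.4 in A and 11.3 in B and one in the body with 7.01 in A and 6.92 in B. Kcnk3, which encodes an acid-sensitive leak channel, had 2 in the body with 9.18 and 11.6 in A and 5.84 and 9.60 in B, and 2 in the flanks. An entry at the lower boundary of Kcnk3, with 10.6, was present in A alone. Kcnk4, the gene of a mechanosensitive two-pore channel, had 5 replicated peaks in its locus, yet none was its own: all 5 lay at ends of Prdx5, Trmt112, Esrra, Catsperz, Bad or Gpr137.

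Kcnn, Kcnt and Kcnu genes were classed by symbol as calcium- or sodium-activated channels, a label that need not hold for Kcnu1. Of these 7 genes 4 were open (57.1%), against 65.7% of other genes of like length, and 3 had a peak at an own end. Kcnn1 and Kcnn2 encode small-conductance calcium-activated channels. The peak at the start boundary of Kcnn1, at -2.42 kb (upstream) relative to the nearest start with a window, was 505 bp wide, with 13.5 in A and 13.4 in B, and that outside the lower end of Kcnn2 had 12.3 in A and 13.5 in B. Kcnt2, which encodes a sodium-activated channel, had a peak over its start with 8.67 in A and 9.55 in B, and 2 in the body with 5.73 and 5.84 in A and 9.07 and 13.4 in B. At Kcnt1, its relative, the body peak had 18.1 in A and 5.88 in B. Overlap with B covered 225 of 505 bp at the Kcnn1 boundary and 113 of 392 bp in the Kcnt1 body. Where an overlap of at least 50% of both entries was required, neither gene was open, and open members numbered 23 instead of 25.

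**Figure D4:**
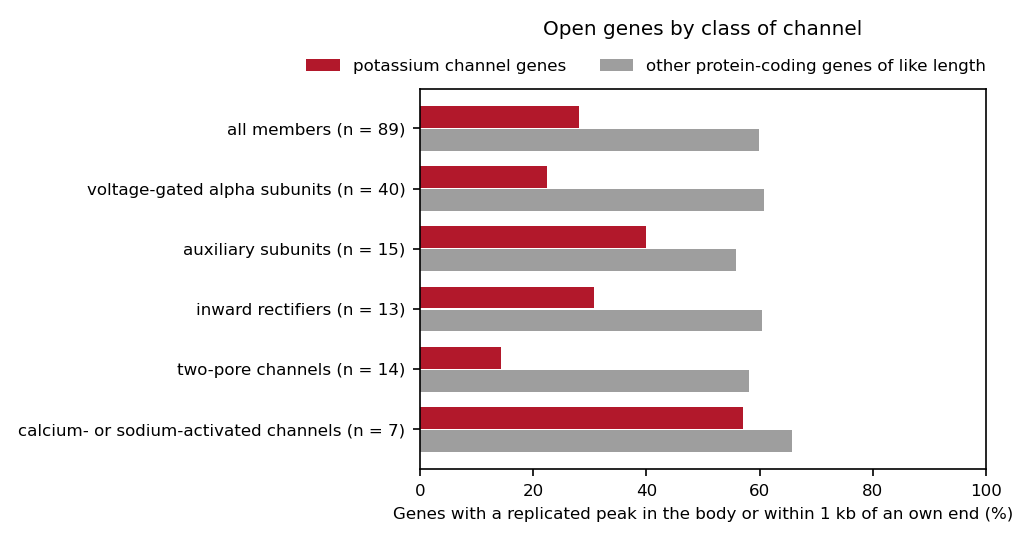
Percent of genes that are open, by class of channel, for potassium channel genes in red and for other protein-coding genes of like length in grey. All 5 classes lie below their grey bar, from 14.3% against 58.1% for two-pore channels to 57.1% against 65.7% for the class labelled calcium- or sodium-activated.

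Flank peaks need not belong to the member. At 21 members they were the only replicated peaks. Genes of this kind fill the gap between the share with any locus peak and the open share. For members these shares were 51.7% and 28.1%, and for all protein-coding genes 64.6% and 51.4%. The gap was thus wider for members. Ranked by the percentile of fold enrichment within each list, averaged over both lists, the leading 5 peaks of the member loci were all flank peaks. The first, 5.53 kb outside Kcnk6, had 26.3 in A and 24.2 in B and lies at an end of Yif1b. The second, 17.0 kb outside Kcnh3, had 26.9 in A and 23.0 in B and was near no protein-coding gene end. This peak lay in or within 1 kb of the long noncoding RNA gene 1700120C14Rik. The others lay at ends of Ssr3 near Kcnab1, of Rab5c near Kcnh4, with 24.7 in A and 19.9 in B, and of Oga near Kcnip2, with 22.1 in A and 20.5 in B. Flank peaks at an end of another gene had a median of 16.1 in A and 12.8 in B. Peaks at own ends of members had 11.7 in A and 9.72 in B, while over the whole list replicated peaks at gene ends had 14.4 in A and 13.0 in B. Peaks in member bodies had 11.1 in A and 9.25 in B, against 10.8 in A and 9.40 in B for all replicated peaks away from gene ends.

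**Figure D5:**
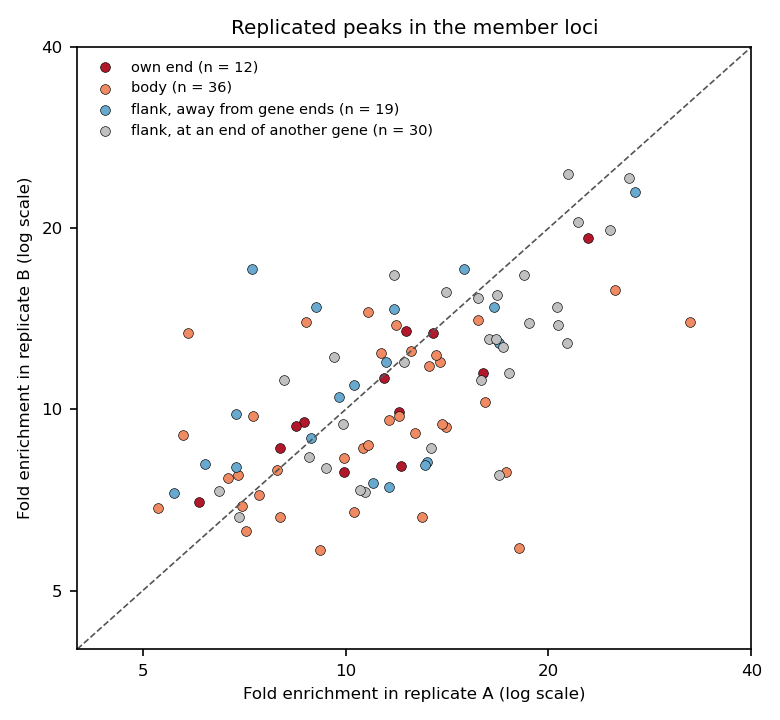
Fold enrichment in B against that in A for the 97 replicated peaks of the member loci, both on log scales, with colours for the place of the peak and equal values on the dashed line. Fold enrichment is not scaled between the lists. Of the 97 peaks 62 (63.9%) lie below the line, against 66.3% of all replicated peaks with the higher value in A. The values at own ends reach up to 22.9 in A, at Kcnab2.

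Of the 157 entries of A in these loci 97 were replicated, or 61.8% with a Wilson 95% interval of 54.0 to 69.0 that covers counting error only. In the loci of other protein-coding genes the share was 66.1%, within that interval. The deficit was present in each list alone. An entry of A lay in the locus of 59 members (66.3%), against 77.8% of other genes of like length. For B these were 51 members (57.3%) against 74.8%. The counts that follow were not made over all genes: 27 members had no entry in either list. Another 16 had entries but no replicated peak, 11 of them in A alone, 3 in B alone and 2 in both without overlap. The strongest of these were in A, 12.8 at Kcnk15, 12.7 at Kcnj3 and 10.4 at Kcne1l, all in the flanks. Kcnn3, noted after its values were seen, had 3 entries in the body in A and none in B. The 6 longest members without a replicated peak were Kcnd2, Kcnh7, Kcnb2, Kcnh8, Kcnh1 and Kcnmb2, of 298320 to 514460 bp. Kcnd2 had 1 entry in A, Kcnh1 had 1 in B and the other 4 had none.

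Other ion channel families were counted in the same way. Scn genes, of voltage-gated sodium channels, were open at 1 of 14 (7.14% against 65.6% of other genes of like length). Hcn genes, of pacemaker channels, were open at 0 of 4 (0% against 62.7%), and 2 of the 4 had a replicated peak in the locus. Trpc, Trpm and Trpv genes, of cation channels, were open at 7 of 23 (30.4% against 65.7%), with the most replicated peaks at Trpm3 (4) and Trpm1 (3). Calcium channel families stood higher in the open share. Cacna1 genes, of the pores, were open at 5 of 10 (50% against 69.1%), and Cacnb and Cacna2d genes, of their auxiliary subunits, at 6 of 8 (75% against 67.1%). Cacna1c had 9 replicated peaks and Cacna2d1 had 8, all of them in the body, with 1 at an end of Cacna2d1. Clcn genes, of a family that includes chloride channels, were open at 6 of 9 (66.7% against 62.1%), with 4 peaks each at Clcn3 and Clcn4. Ano genes, which include calcium-activated chloride channels, were open at 5 of 10 (50% against 66.0%), with 11 peaks each at Ano1 and Ano6. Kctd genes share a domain with voltage-gated potassium channels but form no pore, and 14 of 22 were open (63.6% against 56.8%), with 5 peaks at Kctd7 and 4 at Kctd11. A replicated peak at an own end was found at 7.14% of Scn, 0% of Hcn and 8.7% of Trpc, Trpm and Trpv genes. For Cacna1 genes the share was 20%, and for Cacnb and Cacna2d genes 12.5%. Ano, Clcn and Kctd genes reached 30%, 44.4% and 59.1%, against 12.4% of potassium channel genes and 41.9% of all protein-coding genes. These families are small, and the differences between them were not tested.

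Partners of potassium channels and other potassium transporters were open at 13 of 35 (37.1% against 55.8%). Abcc9, whose sulfonylurea receptor pairs with the product of Kcnj8 in channels sensitive to ATP, had 7 replicated peaks, 3 in the body. Kcnj8 had 2, 1 of them at an own end, and Kcnma1 had 2 in the body. Abcc8, Kcnj11 and Kcnmb1 had no entry in either list. Dpp6 and Dpp10, whose products join Shal-type channels together with KChIP proteins, had none either. Slc12a4, which encodes a potassium and chloride cotransporter, had 5 replicated peaks and was open at an own end.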

How the data were processed

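ATAC-seq peaks of 2 samples of 1 group, replicates A and B, were analysed as deposited by the authors, 1 list per library. Per the submitters' processing notes the build is mm10, and the tools named, without their roles, are MACS2, HOMER, bedtools, Picard, SAMtools and STAR 2.7.0. The sources used here do not give how the lists were cleaned or whether reads were shifted for Tn5. Each deposited entry holds a fold enrichment (a linear ratio), a −log10 p and a −log10 q from their caller, a score and a summit offset. In A no −log10 q was under 3.04 and in B none under 3.0.

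Gene spans and promoter windows came from RefSeq tables of GRCm38.p6. Coordinates are 1-based. Replicated peaks, loci, ends and length classes are defined in the text. Comparisons used the 21798 other protein-coding genes within 10 length classes, weighted to the members, with no test, since genes are not replicates. A peak in several loci counts in each. Python 3.11.15, numpy 2.4.6, pandas 2.3.3 and scipy 1.17.1 were used, and functions were tested on simulated data.

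The members, lists and rules were chosen with earlier results of these data known. Open members are named, and some items are not reported here. Values are given for the members with most peaks, those open at an end, and the 5 best-ranked peaks. Also named are the 6 longest members without a replicated peak and the 3 strongest with entries in 1 list only. The split by CpG content, the strand of ends, the density per Mb, the class of long genes, Kcnq1ot1, Kcnn3 and further genes of the comparison families were added after the data were seen.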

Additional observations from a re-analysis of the deposited data

How the results depend on the processing

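Potassium channel genes lay below other genes of like length in the share with a replicated peak in the locus, the share at own ends, the open share and the mean per locus under every alternative run, and 20 length classes left the first comparison at 51.7% against 70.9%. The sizes moved with stringency. With the 10000 strongest entries of each list 24 members kept a peak in their locus, 2 had one at an own end and 7 were open, with 27 peaks in all and a median of 0. The 7 were Kcnab1, Kcnab2, Kcnh5, Kcnip1, Kcnk5, Kcnq1 and Kcnq3. Above the median −log10 q, 5 members had a peak at an own end and 13 were open, with 45 peaks and a median of 0. In gene bodies alone 22 members had a peak, 44 in all, with a median of 0. Assigning every peak only to its nearest gene, these were 27 members and 53 peaks, also with a median of 0. Leaving out peaks at an end of another gene gave a median of 0, and 50 kb on either side gave 183 peaks. With each replicate alone, members with a peak in the locus numbered 51 to 59, those at an own end 15 to 19, the open members 30 to 36 and the peaks 129 to 159, with a median of 1. The higher values were those of A. At the 25 members with 2 or more replicated peaks, 20 kept their count under reciprocal overlap of 50%, and 14 had a peak among the 10000 strongest entries. No paired analysis was possible because the series has 1 group. Depth is unknown, so a weak peak in 1 list cannot be told from one missed in the other.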
